A study of Mus musculus with 6 samples.

Results

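Aldo-keto reductase transcripts were compared between livers of Nrf2 knockout mice and livers of wild-type mice on 1-colour Affymetrix arrays. Nrf2, the product of Nfe2l2, is a transcription factor of the antioxidant response. Both groups were 10 weeks old and of the strain given as C57B/SV129, with no injury or treatment named. There were 3 knockout arrays and 3 wild-type arrays, each of RNA pooled from 3 animals, so that the errors below are those of pools, and the spread of single animals cannot be seen. The labels do not say whether pools shared animals, and they give no sex. The genes were 10 named aldo-keto reductases, Akr1a1, Akr1b3, Akr1c6, Akr1c12, Akr1c13, Akr1c14, Akr1c19, Akr1c20, Akr1d1 and Akr7a5, and their probe sets were those annotated to exactly 1 of these symbols. This gave 16 probe sets of 9 genes, among 45037 non-control probe sets and 18193 genes in all. No probe set of Akr1b3, the aldose reductase gene, was named this way, and it was not measured here. Of the 16 probe sets, 15 passed the intensity filter of the test, covering all 9 genes. The dim one, an Akr7a5 probe set, lay between 7.63 and 19.3 on all 6 arrays.

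Aldo-keto reductases are mostly cytosolic enzymes that use NADPH to reduce aldehydes and ketones to alcohols. In liver they take part in the detoxification of reactive carbonyls, in the metabolism of steroid hormones and in bile acid synthesis. Several genes of the family in rodents and humans are known as Nrf2 targets, through antioxidant response elements, the DNA sites that Nrf2 binds with small Maf proteins.

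Within 300-base windows at 1 annotated start of each gene, 250 bases before and 50 after, the core of this element was searched as TGACNNNGC on both strands. It was found in 12.4% of 32851 such windows of mouse genes and in 1 of the 8 windows of the measured genes that had one. All sequences are from RefSeq, build GRCm38.p6, and are written 5′ to 3′ along the gene. The first 3 are shown because these genes had all knockout pools below all wild-type pools, and none of the 3 windows holds the searched letters. The Akr1c14 window lies at a start 10600 bases inside the gene's listed span, so the outer end of that gene was not searched. In the other 7 windows the start was 0 to 237 bases inside the span.
Akr7a5, chr4:139310494-139310793, + strand: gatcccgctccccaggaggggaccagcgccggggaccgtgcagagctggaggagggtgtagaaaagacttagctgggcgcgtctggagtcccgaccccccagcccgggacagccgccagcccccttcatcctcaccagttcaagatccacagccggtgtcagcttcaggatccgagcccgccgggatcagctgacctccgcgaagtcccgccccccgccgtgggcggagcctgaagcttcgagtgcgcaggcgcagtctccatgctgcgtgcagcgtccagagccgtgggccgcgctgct
Akr1a1, chr4:116651625-116651924, - strand: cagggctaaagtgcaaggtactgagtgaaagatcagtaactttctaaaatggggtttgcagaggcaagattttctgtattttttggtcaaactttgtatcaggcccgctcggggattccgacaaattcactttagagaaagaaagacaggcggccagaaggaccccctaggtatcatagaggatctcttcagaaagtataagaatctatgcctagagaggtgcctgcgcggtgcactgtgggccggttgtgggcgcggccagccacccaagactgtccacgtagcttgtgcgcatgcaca
Akr1c14, chr13:4059341-4059640, + strand: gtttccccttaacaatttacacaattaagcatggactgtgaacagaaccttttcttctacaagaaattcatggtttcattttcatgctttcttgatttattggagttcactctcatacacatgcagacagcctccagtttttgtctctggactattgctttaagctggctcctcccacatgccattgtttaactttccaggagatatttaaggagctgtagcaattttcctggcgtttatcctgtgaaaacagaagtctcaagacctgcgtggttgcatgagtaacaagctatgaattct
The window of Akr1c19 is shown because it holds the match, in capitals, at bases 258 to 266 on the opposite strand.
Akr1c19, chr13:4233490-4233789, + strand: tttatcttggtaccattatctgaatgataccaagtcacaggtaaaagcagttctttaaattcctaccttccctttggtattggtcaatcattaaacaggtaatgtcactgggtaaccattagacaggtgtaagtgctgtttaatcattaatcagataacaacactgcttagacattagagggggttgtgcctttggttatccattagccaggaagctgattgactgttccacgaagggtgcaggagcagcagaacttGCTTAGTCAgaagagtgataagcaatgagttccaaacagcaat
The windows of Akr1c12 and Akr1c13 are shown because these paralogues are close copies there.
Akr1c12, chr13:4279350-4279649, - strand: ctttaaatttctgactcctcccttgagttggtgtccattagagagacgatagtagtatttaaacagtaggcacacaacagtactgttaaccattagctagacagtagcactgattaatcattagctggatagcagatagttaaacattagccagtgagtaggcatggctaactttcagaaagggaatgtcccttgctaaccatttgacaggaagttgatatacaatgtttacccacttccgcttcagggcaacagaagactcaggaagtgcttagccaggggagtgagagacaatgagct
Akr1c13, chr13:4190937-4191236, + strand: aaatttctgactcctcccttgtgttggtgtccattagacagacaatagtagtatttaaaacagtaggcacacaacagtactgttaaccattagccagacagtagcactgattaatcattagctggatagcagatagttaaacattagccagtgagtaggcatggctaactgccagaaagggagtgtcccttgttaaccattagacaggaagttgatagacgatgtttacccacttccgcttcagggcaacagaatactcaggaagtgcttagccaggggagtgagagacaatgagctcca
Over 296 aligned bases the Akr1c12 and Akr1c13 windows were 95.9% identical, with 284 bases the same. Those of Akr1c12 and Akr1c19 shared 65.2% of 279 aligned bases.

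The values are linear probe set intensities, compared after addition of 5.26, log2 transformation and quantile normalization. The ± of a log2 difference is limma's moderated SE. It draws on the variance of all tested probe sets, so it is not the plain spread of the pools. The brighter Nfe2l2 probe set read 5.74, 7.40 and 6.90 in the knockout pools, against 696, 598 and 625 in the wild-type pools, so each array matched its genotype label there. The dim second Nfe2l2 probe set, 1457117_at, showed no such gap, with 24.4 to 27.9 in the knockout pools and 20.2 to 34.4 in the wild-type pools (log2 difference 0.14 ± 0.22, limma adjusted p = 0.925). The 2% trimmed mean intensity of the arrays was 104 ± 14.1 for knockout arrays and 117 ± 21.6 for wild-type arrays (SD, n = 3 each, exact two-sided permutation p = 0.5). Arrays thus differed in scale, with wild-type pools 1 and 3 the brightest. The ratio of 3′ to 5′ actin control intensity was 1.97 ± 0.03 for knockout arrays and 1.86 ± 0.08 for wild-type arrays (SD, n = 3 each). By an exact permutation test p was 0.1, the lowest value reachable with groups of 3, and the part of this ratio in the readings below was not tested. The same ratio for the Gapdh control was 0.767 ± 0.037 for knockout arrays and 0.760 ± 0.0061 for wild-type arrays (SD, n = 3 each, exact two-sided permutation p = 0.9).

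No aldo-keto reductase passed the test across all probe sets. After normalization, among the 9 measured genes, Akr7a5, Akr1c14 and Akr1a1 had every knockout pool below every wild-type pool, with log2 differences from -0.18 to -0.44. The other 6 genes, Akr1c6, Akr1c12, Akr1c13, Akr1c19, Akr1c20 and Akr1d1, had overlapping groups. By limma with Benjamini-Hochberg adjustment over 22519 probe sets, 0 of the 15 passed the threshold of 0.05, against 0.142% of everything tested. At an unadjusted p under 0.05, 7 of the 15 were lower, against 3.89% of all probe sets, and 0 were higher, against 3.75%. The knockout pools all lay below the wild-type pools for 7 of the 15 probe sets, against 6.57% of all. They all lay above for 0 of the 15, against 6.81% of all. These 7 probe sets stand for the 3 genes named, since 4 of them measured Akr1a1 and 2 measured Akr7a5. Counted by the brightest probe set of each gene, 3 of 9 genes had groups apart on the lower side, against 6.55% of 11102 genes. The median log2 difference of the 9 genes was -0.12, against 0.01 for all tested genes. Of the 15 probe sets, 12 had a difference below 0, against 49.2% of all. That number was 13 with median centring and 15 without any normalization, where the median over all probe sets itself was -0.13.

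**Figure D1:**
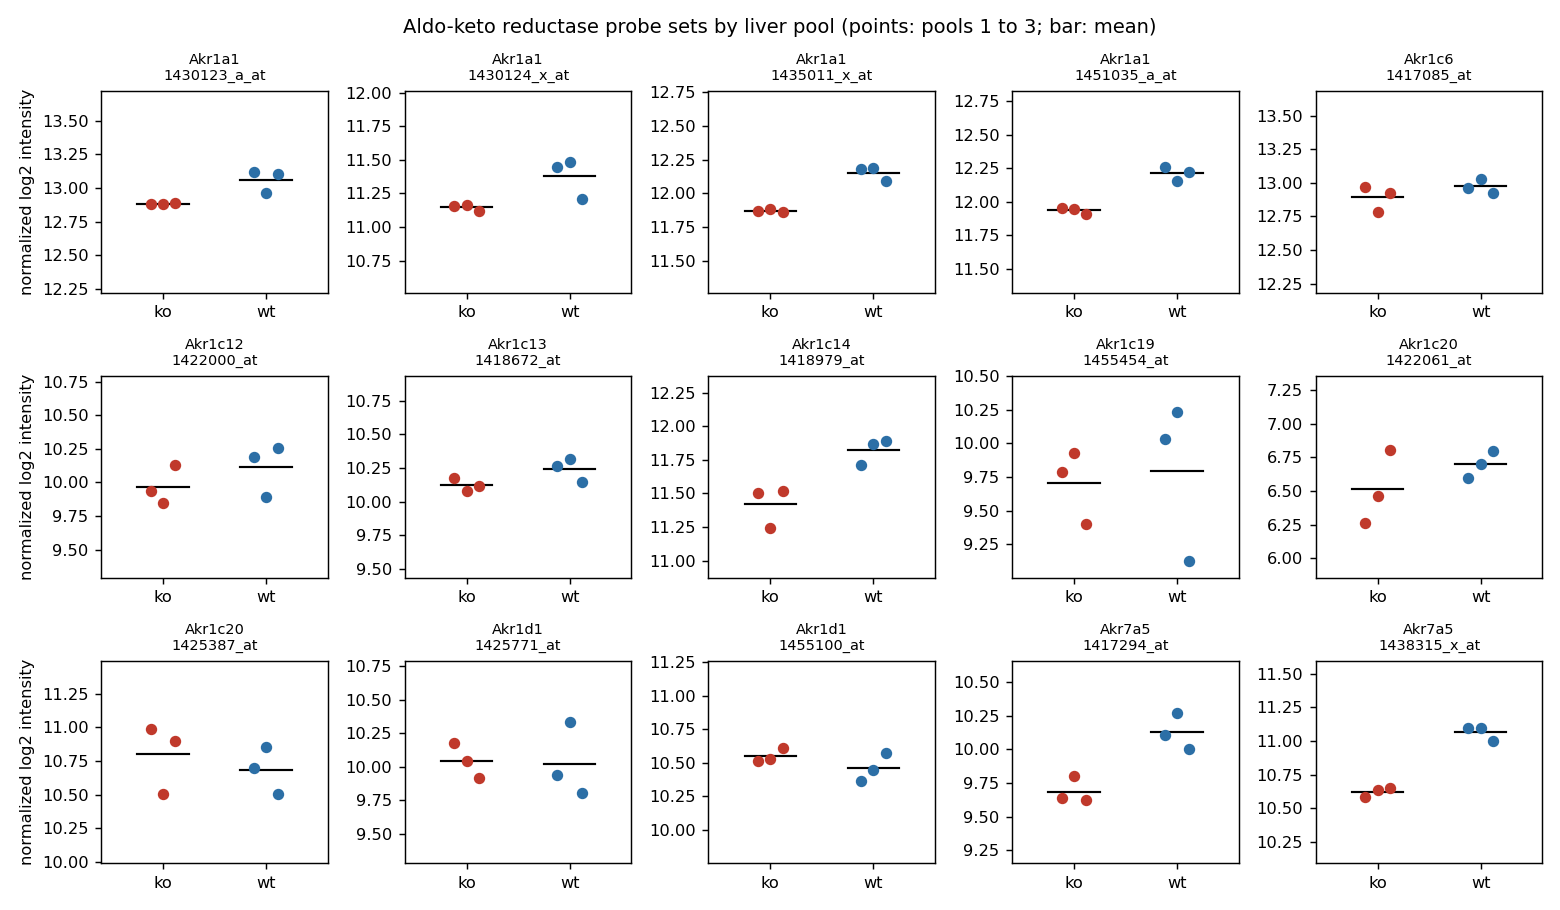
Normalized log2 intensity (vertical axis) of the 15 tested aldo-keto reductase probe sets in the 3 knockout pools (left, red) and the 3 wild-type pools (right, blue). Points are pools, bars are group means, and every panel spans the same width in log2 units. The groups are apart for Akr7a5, Akr1c14 and all 4 Akr1a1 probe sets, and overlap elsewhere.

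Akr7a5 encodes an aldehyde reductase known for reducing aflatoxin dialdehyde and succinic semialdehyde. It had the lowest p among the 9 genes. Its brighter probe set, 1438315_x_at, read 1270, 1470 and 1779 in the knockout pools, against 2517, 1904 and 2374 in the wild-type pools. After normalization, in log2 units, these were 10.59, 10.63 and 10.65 in the knockout pools, against 11.09, 11.10 and 11.00 in the wild-type pools. The groups were apart both before and after normalization, and the pools of each genotype lay close together. The log2 difference was -0.44 ± 0.07 (SE, n = 3 per genotype), with a limma adjusted p of 0.0953. The knockout level was thus 73.7% of the wild-type level, with a 95% interval of 65.7% to 82.7%. By unadjusted p this probe set ranked 53rd of 22519.

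A second Akr7a5 probe set, 1417294_at, read 657, 819 and 858 in the knockout pools, against 1306, 1043 and 1195 in the wild-type pools. Its groups were also apart, and its log2 difference of -0.44 ± 0.10 had the same size (limma adjusted p = 0.296). In the array's naming, the x of the brighter set marks probes that can match other transcripts, and the second set carries no such mark. The dim probe set of the gene overlapped between the genotypes, with a difference of -0.30 in a fit without the intensity filter. Akr7a5 passed the threshold in no setting tried, and the limma adjusted p of the brighter probe set ran from 0.0574 with array weights to 0.499 without the intensity trend.

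The genes whose pattern over the 6 arrays was most like that of Akr7a5 were Aox1, Ephx1 and Ugt2b5, an aldehyde oxidase, the microsomal epoxide hydrolase and a glucuronosyltransferase. Pearson's r with the brighter Akr7a5 probe set was 0.999, 0.998 and 0.998 across 6 arrays. The arrays fall into 2 genotypes, so this likeness mainly restates a shared gap between the groups and carries no test. Aox1 had a log2 difference of -1.78 ± 0.14, Ephx1 of -1.30 ± 0.10 and Ugt2b5 of -0.74 ± 0.07 (SE, n = 3 per genotype), each larger in size than that of Akr7a5.

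Akr1a1 encodes aldehyde reductase, which in mice also reduces glucuronate to gulonate on the way to ascorbate. All 4 of its probe sets had the knockout pools below the wild-type pools after normalization. The brightest, 1430123_a_at, read 6643, 7255 and 7901 in the knockout pools, against 9387, 7825 and 9129 in the wild-type pools. Before normalization the highest knockout pool lay above the lowest wild-type pool, and after normalization the groups were apart. Its log2 difference was -0.18 ± 0.07 (SE, n = 3 per genotype), or 88.4% of the wild-type level with a 95% interval of 79.7% to 98.1% (limma adjusted p = 0.600).

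The other Akr1a1 probe sets gave somewhat larger differences. Probe set 1435011_x_at read 3189, 3597 and 4036 in the knockout pools, against 5136, 4135 and 5036 in the wild-type pools. Its log2 difference was -0.29 ± 0.07 (limma adjusted p = 0.296). Probe set 1451035_a_at, which overlapped before normalization at 4168 in the highest knockout pool and 4040 in the lowest wild-type pool, was at -0.27 ± 0.07, and probe set 1430124_x_at at -0.23 ± 0.09 (SE, n = 3 per genotype). The 4 probe sets are annotated to the same gene and read the same RNA, so they are not independent, and 2 of them carry the x mark. Over the 6 arrays, which fall into 2 genotypes, 1430124_x_at correlated with the Akr1c13 probe set at r = 0.92. With the other Akr1a1 probe sets, r was 0.91 for 1435011_x_at, 0.75 for 1451035_a_at and 0.53 for the brightest. The knockout pools were nearly equal at the brightest one, with a range of 0.01 on the log2 scale, against 0.16 among the wild-type pools.

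**Figure D2:**
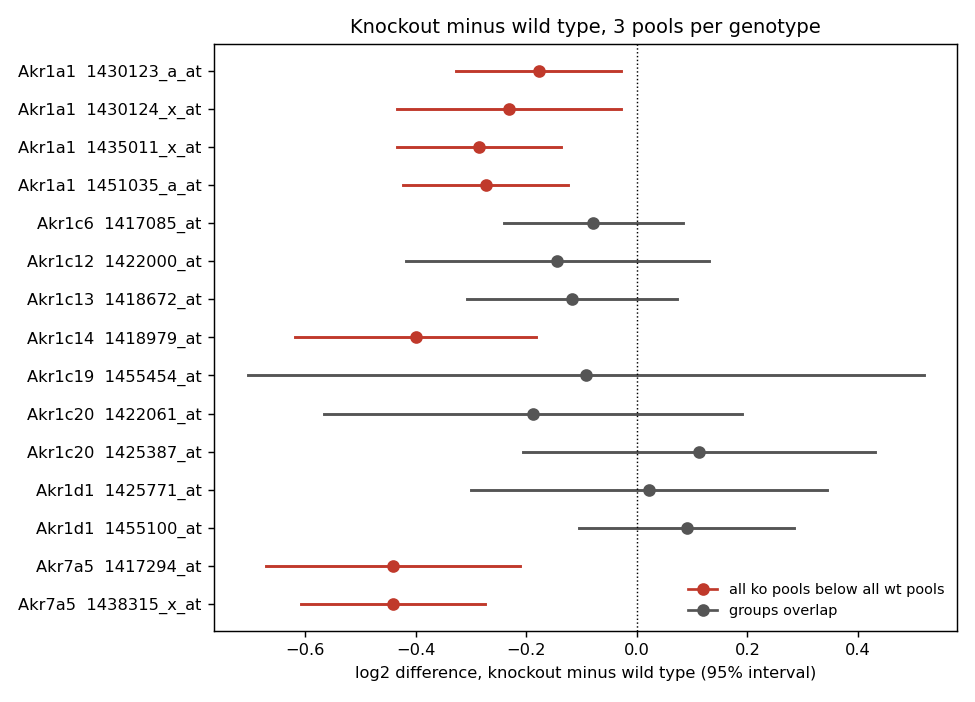
Log2 difference, knockout minus wild type, of each tested aldo-keto reductase probe set (horizontal axis) with its 95% interval from limma, 3 pools per genotype. Red marks probe sets whose knockout pools all lay below the wild-type pools; the intervals of those 7 do not reach 0, and the values run from -0.44 to -0.18.

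Akr1c14 encodes a 3α-hydroxysteroid dehydrogenase, an enzyme that interconverts keto and hydroxy groups at the steroid A ring. Its single probe set, 1418979_at, read 2433, 2285 and 3171 in the knockout pools, against 3759, 3279 and 4323 in the wild-type pools. The groups were apart before and after normalization, by a small margin on the linear scale. The log2 difference was -0.40 ± 0.10 (SE, n = 3 per genotype), or 75.8% of the wild-type level with a 95% interval of 65.2% to 88.1% (limma adjusted p = 0.338). Leaving out 1 pool at a time gave differences from -0.46 to -0.31.

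The other genes of the Akr1c cluster on chromosome 13 had differences nearer to 0. Akr1c6, also listed as Hsd17b5, encodes a hydroxysteroid dehydrogenase that acts on androgens and oestrogens. It read 7304, 6839 and 8080 in the knockout pools, against 8622, 8173 and 8213 in the wild-type pools. Before normalization the groups were apart by a small margin. After normalization they overlapped, with a log2 difference of -0.08 ± 0.07 (limma adjusted p = 0.835) and a 95% interval of 84.7% to 106% of the wild-type level. The point estimate of Akr1c14, 75.8%, lies outside that interval, but the Akr1c14 interval of 65.2% to 88.1% overlaps it. Whether these genes differ was not tested.

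Akr1c12 and Akr1c13 are paralogues on either side of Akr1c19 whose start windows were compared above. Akr1c12 read 812, 846 and 1226 in the knockout pools, against 1393, 805 and 1411 in the wild-type pools. Wild-type pool 2 was the lowest of all 6 on the linear scale, and the log2 difference was -0.14 ± 0.12 (limma adjusted p = 0.822). Akr1c13 read 961, 1004 and 1222 in the knockout pools, against 1453, 1078 and 1306 in the wild-type pools, with overlapping groups and a difference of -0.12 ± 0.08 (limma adjusted p = 0.790). A probe set annotated to both genes, and so counted for neither, was at -0.10 ± 0.07 (limma adjusted p = 0.780). Its groups overlapped before normalization. After it they were apart by a small margin, at 11.23 to 11.28 in the knockout pools and 11.30 to 11.40 in the wild-type pools. Over the 6 arrays the Akr1c12 and Akr1c13 probe sets correlated at r = 0.0088. Transcript and probe sequences were not compared here, so how much each gene adds to these readings is uncertain.

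Akr1c19 varied most among the pools. It read 733, 892 and 740 in the knockout pools, against 1240, 1010 and 648 in the wild-type pools. Wild-type pool 3 was the lowest of all 6 and wild-type pool 1 the highest on the linear scale. There was a range of 1.11 in normalized log2 units among the wild-type pools. Its within-group spread was larger than that of 92.4% of tested probe sets or equal to it. The log2 difference of -0.09 ± 0.27 (limma adjusted p = 0.962) has a 95% interval of 61.4% to 143% of the wild-type level, and its sign turned when knockout pool 3 or either of the wild-type pools 1 and 2 was left out.

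Akr1c20 had probe sets of opposite sign. The brighter, 1425387_at, read 1704, 1345 and 2107 in the knockout pools, against 1935, 1576 and 1699 in the wild-type pools, a log2 difference of 0.11 ± 0.14 (limma adjusted p = 0.894) that turned to -0.034 without normalization. The dimmer, 1422061_at, lay between 61.6 and 115 in the knockout pools and between 83.4 and 122 in the wild-type pools, with a difference of -0.19 ± 0.17. No direction can be given for the gene.

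**Figure D3:**
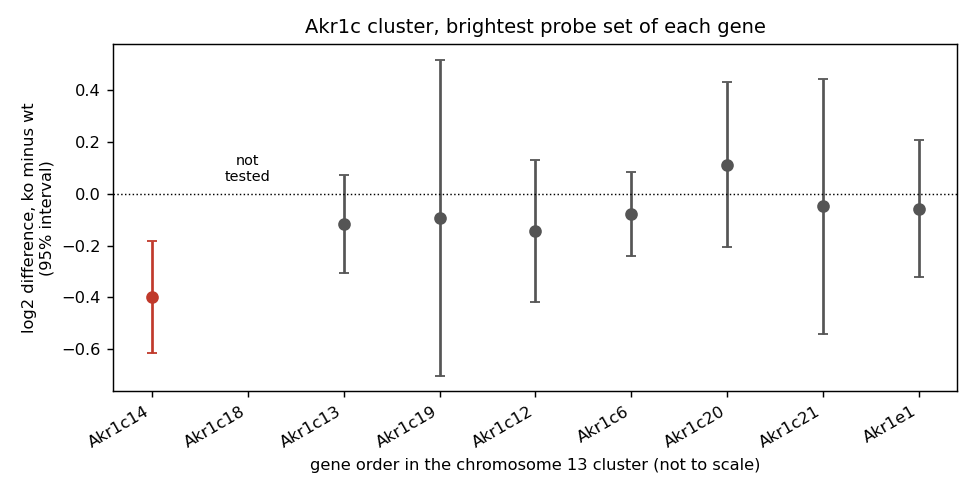
Log2 difference, knockout minus wild type (vertical axis), at the brightest probe set of each gene in the order of the genes along the chromosome 13 cluster, with 95% limma intervals, 3 pools per genotype. Akr1c14, at one end of the cluster, is at -0.40 and the other tested genes lie between -0.14 and 0.11 with intervals that span 0; Akr1c18 was too dim to be tested.

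The cluster holds other genes outside the chosen 10. Akr1e1, which encodes a reductase of 1,5-anhydrofructose, lay between 211 and 304 in the knockout pools and between 264 and 325 in the wild-type pools. Its log2 difference was -0.06 ± 0.12 (limma adjusted p = 0.945). Akr1c21, chosen after its values were seen, was dim, between 23.4 and 46.6 on all arrays, and was at -0.05 ± 0.22. The difference between Akr1c14 and its neighbours was not tested.

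Akr1d1 encodes the steroid 5β-reductase, which gives the A/B ring junction of bile acids its bent shape. Its brighter probe set, 1455100_at, read 1215, 1361 and 1732 in the knockout pools, against 1548, 1186 and 1791 in the wild-type pools. The groups overlapped, and the log2 difference was 0.09 ± 0.09 (limma adjusted p = 0.848), with a 95% interval of 93.1% to 122% of the wild-type level. The second probe set, 1425771_at, was at 0.02 ± 0.14, or 81.2% to 127% of the wild-type level. Both values turned negative without normalization, at -0.066 and -0.13, and the second also with median centring, at -0.028. Without normalization the median over all probe sets was -0.13.

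Related genes of the family and of the same pathways were compared by lists. Of 10 other aldo-keto reductase and potassium channel beta subunit genes, 4 passed the intensity filter and all 4 had differences below 0, against 48.6% of all genes. None passed by limma, against 0.144% of all genes, and 2 had an unadjusted p under 0.05, both lower, where 4.15% of all genes were. Akr1b8, an aldose reductase-like gene, read 63.9, 48.6 and 50.5 in the knockout pools, against 128, 66.3 and 93.8 in the wild-type pools. Its groups were apart, by a small margin on the linear scale, with a log2 difference of -0.60 ± 0.20 (limma adjusted p = 0.559). Akr1b10, its neighbour, read 23.7, 11.3 and 12.1 in the knockout pools, against 34.8, 28.6 and 28.7 in the wild-type pools. After normalization its groups overlapped, at -0.71 ± 0.29 (limma adjusted p = 0.630). Both are dim, so the pseudocount understates their difference.

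Other carbonyl-metabolising enzymes went in both directions. Of 25 tested genes of 27 listed, 17 were lower, against 48.6% of all genes, and 8 higher. The median was -0.04, and 0 were past the limma threshold, against 0.144% of all genes. The knockout pools all lay below the wild-type pools for 4 genes, against 6.55% of all, and above for 0, against 6.81% of all probe sets. With p under 0.05 before adjustment, 1 was lower, against 4.15% of all genes, and 1 higher, against 4.07%. The lower gene was the quinone reductase Nqo1, at -0.72 ± 0.22 (limma adjusted p = 0.493). It read 23.5, 37.1 and 26.0 in the knockout pools, against 68.1, 48.2 and 50.5 in the wild-type pools. The higher gene was the carbonyl reductase Cbr1, at 0.38 ± 0.13 (limma adjusted p = 0.578). It read 513, 552 and 512 in the knockout pools, against 476, 398 and 485 in the wild-type pools, and its groups overlapped after normalization. The retinaldehyde dehydrogenase gene Aldh1a1, next by p, was at -0.24 ± 0.11 (limma adjusted p = 0.662).

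Of 11 listed genes of glucuronate, ascorbate and polyol metabolism, the setting of Akr1a1, 8 were tested. Of these, 6 were lower, against 48.6% of all genes, and none passed by limma, against 0.144%. The median was -0.09. Before adjustment, 2 were lower with p under 0.05, against 4.15% of all genes, and 0 higher, against 4.07%. Knockout pools all lay below wild-type pools for 2, against 6.55% of all genes, and above for 0, against 6.81% of all probe sets. Ugdh, which makes UDP-glucuronate, read 853, 1349 and 1037 in the knockout pools, against 2252, 1906 and 2153 in the wild-type pools. It was at -0.82 ± 0.16 (limma adjusted p = 0.170), with the groups apart, and passed the threshold without knockout pool 2 and, with all pools, without normalization. Cryl1, a gulonate dehydrogenase gene, was at -0.54 ± 0.16 (limma adjusted p = 0.510) and the glucuronidase gene Gusb at 0.28 ± 0.14. Gulo, the last enzyme of ascorbate synthesis, chosen after its values were seen, was at 0.00 ± 0.14.

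Enzymes of steroid and bile acid synthesis, the setting of Akr1d1, Akr1c6 and Akr1c14, were lower for 11 and higher for 11 of 22 tested genes. Among all genes, 48.6% were lower. The median of the list was 0.01, and 0 were past the limma threshold, against 0.144% of all genes. Before adjustment, 1 gene was lower with p under 0.05, against 4.15% of all genes, and 4 were higher, against 4.07%. The knockout pools all lay below the wild-type pools for 1 gene, against 6.55% of all, and above for 4, against 6.81% of all probe sets. Cyp17a1, the steroid 17α-hydroxylase gene, read 124, 284 and 129 in the knockout pools, against 43.4, 30.1 and 16.4 in the wild-type pools, a log2 difference of 2.49 ± 0.40 (limma adjusted p = 0.0885). Hsd17b6, a hydroxysteroid dehydrogenase gene, was at 0.63 ± 0.10 (limma adjusted p = 0.0953) and the oxysterol hydroxylase gene Cyp7b1 at -1.11 ± 0.28 (limma adjusted p = 0.375). Without normalization Cyp17a1, Cyp7b1 and Cyp39a1, the last outside the naming rule and chosen after its values were seen, passed.

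**Figure D4:**
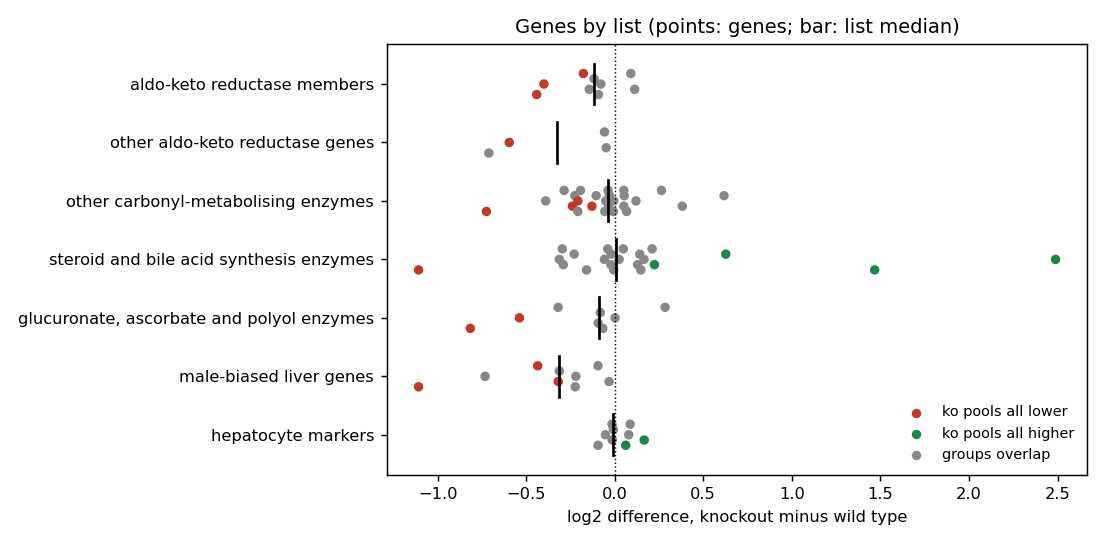
Log2 difference, knockout minus wild type (horizontal axis), of each gene by list, at its brightest tested probe set. Points are genes, bars are list medians, and colours show whether the 3 knockout pools all lay below or above the 3 wild-type pools. The 9 aldo-keto reductases lie between -0.44 and 0.11, a narrower span than the steroid and bile acid genes, which reach from -1.11 to 2.49.

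Markers were read on the same arrays. Summed intensities below are of values before normalization, so they also carry the differences in array scale. Male-biased liver genes include Cyp7b1. At the brightest probe set, all 9 tested of 11 listed had differences below 0, from -1.11 to -0.03, against 48.6% of all genes, and 12 of their 14 tested probe sets did, against 49.2% of all. Their summed intensity ran from 16967 to 30536 in the knockout pools, against 34434 to 38686 in the wild-type pools. By limma 0 passed, against 0.144% of all genes. Before adjustment 3 of the 9 were lower with p under 0.05, against 4.15% of all genes. These were Cyp7b1 at -1.11, Cyp4a12a at -0.73 and Elovl3 at -0.44. The part of this shift in the lower readings of Akr7a5, Akr1c14 and Akr1a1 was not tested. The Y-linked gene Eif2s3y, chosen after its values were seen, was measured in all pools, at 432 to 659 in knockout pools and 497 to 786 in wild-type pools, and no Xist probe set passed the intensity filter. Hepatocyte markers summed to 142143 to 149846 in the knockout pools, against 151256 to 154550 in the wild-type pools, with a median log2 difference of -0.01 after normalization and Hpd at 0.17. Summed intensities of the other marker lists overlapped between genotypes. Kupffer cell markers summed to 5630 to 6158 in knockout pools and 4799 to 7661 in wild-type pools. Cholangiocyte markers summed to 103 to 134 in knockout pools and 98.1 to 194 in wild-type pools, and red blood cell markers to 592 to 1449 in knockout pools and 756 to 1960 in wild-type pools. Adrenal and kidney markers summed to 144 to 183 in knockout pools and 117 to 225 in wild-type pools. Of these, Cyp21a1 was dim, between 6.53 and 33.2 on all arrays. It was at -0.86 (limma unadjusted p = 0.0263, adjusted p = 0.606), and its groups overlapped after normalization. Pancreas and fat markers summed to 701 to 1356 in knockout pools and 625 to 1074 in wild-type pools, and female-biased genes to 82.6 to 124 in knockout pools and 45.8 to 150 in wild-type pools. Few probe sets of these lists passed the intensity filter. They were 3 of 9 for cholangiocyte, 3 of 19 for adrenal and kidney, 2 of 8 for pancreas and fat and 1 of 9 for female-biased genes. The only tested female-biased gene of 10 listed, Cux2, was at 0.87 ± 0.45 (limma adjusted p = 0.712), with overlapping groups. In bulk tissue, fewer cells of a type and less RNA per cell cannot be told apart.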

How the data were processed

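Liver RNA of 6 mouse pools was measured on 1-colour Affymetrix arrays. The deposited values are linear probe set intensities from 0.0174 to 16555, made with GCOS 1.4 per the submitters' processing notes. How signals were computed and scaled there is not stated, and detection calls were not used. Array trimmed means differed by more than 3%, so values were taken as log2(intensity + 5.26), the 25th percentile of all values, and quantile normalized. Without the 64 controls, the 22519 probe sets whose mean reached the median were tested. Symbols came from the platform annotation, updated through Entrez identifiers for 34741 probe sets with a mouse gene table (GRCm38.p6). Of the probe sets, 34945 had 1 gene, 932 several and 9160 none here.

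The test was limma 3.58.1 under R 4.3.3 (eBayes with intensity trend, Benjamini-Hochberg over all tested probe sets, threshold 0.05). Differences are knockout minus wild type on the log2(intensity + 5.26) scale, which understates dim probe sets. A gene in a list takes its brightest tested probe set. The procedure was tested on simulated data with planted differences larger than those of the members. That simulation does not cover differences of the members' size. Named genes are the 10 members, Nfe2l2, up to 3 genes per pathway list by smallest p, markers with an unadjusted p under 0.05, and the 3 genes most correlated with the member of smallest p. The members and lists were chosen with earlier results of these data known. Precision is limited by having 3 arrays per genotype. Alternatives changed the normalization, pseudocount, filter, trend, array weights, replicate block, probe set per gene, trimming and the pools included.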

Additional observations from a re-analysis of the deposited data

How the results depend on the processing

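No aldo-keto reductase probe set passed under any of the 15 alternatives, the lowest adjusted p being 0.0574 for Akr7a5 with array weights. Of 234 recomputed member values, 223 kept their sign and 11 turned it, none of them past the threshold. Akr1d1 (1425771_at) turned to -0.028 with median centring, -0.13 without normalization, -0.045 without knockout pool 1, -0.022 without wild-type pool 1 and -0.088 without wild-type pool 3, and ranged up to 0.18 with 1 pool left out. Without normalization Akr1d1 (1455100_at) was at -0.066 and Akr1c20 (1425387_at) at -0.034, and the mean of the Akr1c20 probe sets was at -0.037. Akr1c19 turned to 0.062 without knockout pool 3, 0.028 without wild-type pool 1 and 0.13 without wild-type pool 2, and was at -0.43 without wild-type pool 3. The cause of these turns was not tested. The count of 7 probe sets with the knockout pools below the wild-type pools was 6 without normalization, where Akr1a1 (1430123_a_at and 1451035_a_at) overlapped and Akr1c6 was apart, and 7 with median centring or either other pseudocount, alternatives chosen after seeing the data.

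Over all probe sets, 32 passed, against 143 without normalization, 20 when unfiltered, 19 when filtered at the 70th percentile and 18 with no intensity trend. Leaving out 1 pool gave 18 to 29, the counts being 19 for knockout pool 1, 19 for knockout pool 2 and 18 for wild-type pool 2 left out. Of the pathway list genes 0 passed, against 4 without normalization (Cyp7b1, Cyp39a1, Cyp17a1 and Ugdh) and 0 to 1 without 1 pool (Ugdh without knockout pool 2). With the replicate number as a block, 1 list gene passed, Cyp17a1, and 0 members. Deviations of same-numbered pools correlated at 0.13, 0.05 and 0.25, and those of differently numbered pools at values from -0.19 to 0.10. The highest of the latter, 0.10, was that of knockout pool 2 with wild-type pool 1. At 2 list genes chosen after their values were seen, pool 3 of both genotypes stood apart from the other pools. Amacr read 2006 in knockout pool 3 and 2124 in wild-type pool 3, against 301 to 399 in the others. Alas2 read 164 and 243 in these pools, against 693 to 1415 in the others. The main fit did not treat the numbers as pairs, and whether same-numbered pools shared a batch was not tested. The precision of 3 pools per genotype leaves intervals for the 6 overlapping genes, at their brightest probe sets, from 84.7% to 106% of the wild-type level at the narrowest (Akr1c6) to 61.4% to 143% at the widest (Akr1c19).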
